A study of Saccharomyces cerevisiae with 6 samples.

Results

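The genes described here are 51 budding yeast genes of the chromosome segregation machinery, picked by systematic name from the 6212 identifiers of the series. They encode the Aurora kinase complex (3 genes), the spindle checkpoint (6), the inner kinetochore (6), the outer kinetochore (8), the DASH complex (7), other microtubule-binding proteins (6), motors (4), tubulins (4) and the spindle pole body (7). All cells were of strain MMR09-4 in the CML476 background, in which a kanMX4-tetO7 cassette stands before the YPI1 coding region. Cells given doxycycline at 100 µg/ml in an ethanol and water mix for 2, 4 and 6 h were compared with cells of the same strain given the solvent for the same time. Each time had 1 pair of RNA samples on 2 dye-swapped 2-colour arrays, 6 arrays in all. The solvent cells also carried the tetO7 promoter. Cells with the native YPI1 promoter were not analysed here, so an effect of doxycycline itself and that of YPI1 loss cannot be told apart.

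The kinetochore is built on centromeric DNA and holds a chromosome to microtubules of the spindle, which in budding yeast run inside the nucleus between the spindle pole bodies. The Aurora kinase Ipl1 loosens faulty attachments by phosphorylating outer kinetochore proteins, and the Mad and Bub proteins delay anaphase until attachments are complete. Ypi1 binds Glc7, the protein phosphatase 1 catalytic subunit, which acts against Ipl1 in this setting, and the study is about Ypi1 in mitosis.

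Values are log2 ratios of doxycycline over solvent cells, and the 2 values given for a time are those of replicates 1 and 2. The 2 h ratios of YPI1 (YFR003C), the gene behind the promoter, were −4.06 and −4.73. Its 4 h ratios were −5.32 and −5.64, and those of 6 h were −6.44 and −6.17, so it was far below 0 on each array. Doxycycline RNA was in Cy5 on replicate 1 of 2 and 4 h and on replicate 2 of 6 h. The label of replicate 2 of 2 h gives Cy3 for both channels, and it was taken as the dye swap. Over all genes the correlation between swapped arrays was −0.40 at 2 h and −0.17 at 4 h, while it was 0.87 at 6 h, so the ratios of most genes at the first 2 times ran opposite ways in the 2 dye orientations. The direction was kept because the labels state the dyes and YPI1 was low on every array. Arrays held values for 4250 to 4804 genes. No spot intensities were used here, and the precision is limited by the number of arrays. Fewer cells in mitosis and less RNA per cell cannot be told apart in these ratios.

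Of the 51 genes, 21 had a value on all 6 arrays, 22 on 1 to 5 arrays and 8 on none. The 8 were BUB1 (YGR188C), a checkpoint kinase, CSE4 (YKL049C), the centromeric histone, the motors KIP1 (YBL063W) and KIP3 (YGL216W), and SPC42 (YKL042W), SPC97 (YHR172W), SPC110 (YDR356W) and SPC29 (YPL124W) of the spindle pole body. Both arrays of a time gave a value for 35 genes at 2 h, 39 at 4 h and 27 at 6 h.

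**Figure D1:**
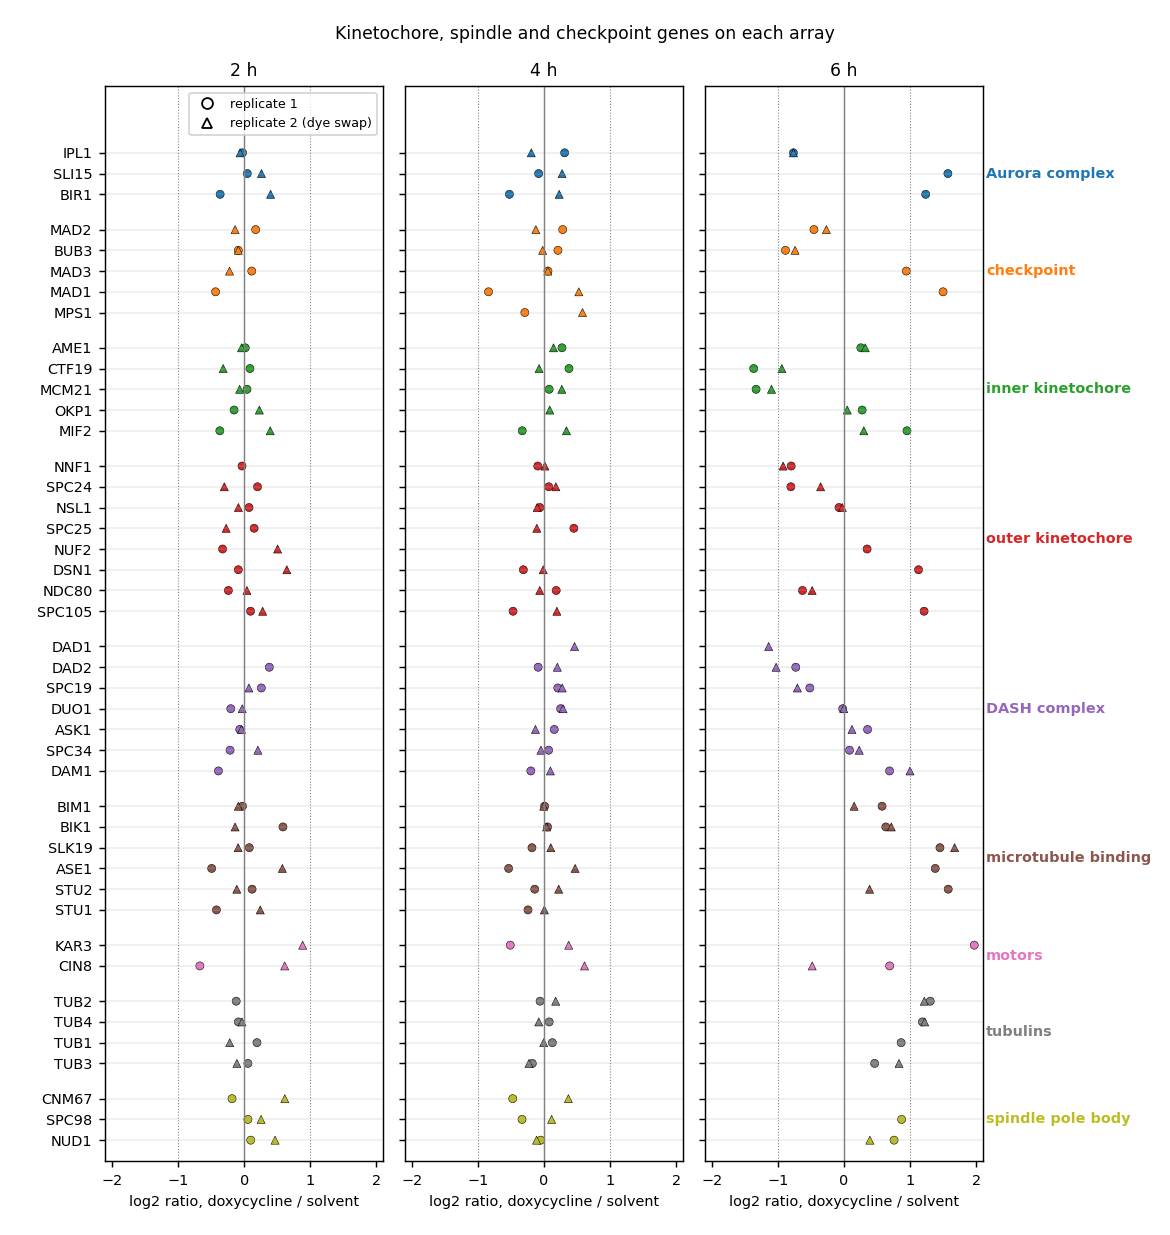
Log2 ratio of doxycycline over solvent cells (x axis) for the 43 genes with a value, by time, with circles for replicate 1 and triangles for its dye swap, ordered by group and, within a group, by gene length from short at the top to long. At 2 and 4 h all points lie within 1 of 0, while at 6 h they spread between −1.37 and 1.97 and the lower genes of most groups lie on the right.

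At 2 h none of the segregation genes stood apart from solvent cells by 2-fold. A gene was counted as past 2-fold where the mean of both arrays was at least 1 in size on the log2 scale and both arrays had 1 sign. None of 35 genes passed, against 0.0486% of the 4119 genes measured on both arrays. In total 5 of 35 were above 0 on both arrays (background 16.8%) and 6 were below (background 16.3%). The median log2 ratio over the 35 was −0.0065 (array medians 0.02 and −0.03), beside −0.0080 for all genes.

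At 2 h the highest mean was that of NUD1 (YOR373W), a spindle pole body scaffold for the mitotic exit network, with 0.28 ± 0.26 (SD over 2 arrays, as in all values with ±), and both of its arrays were above 0. DSN1 (YIR010W) of the outer kinetochore had −0.09 and 0.65. BIK1 (YCL029C), a microtubule plus-end protein, had 0.59 and −0.14, and CNM67 (YNL225C), of the outer plaque of the spindle pole body, had −0.18 and 0.62. The arrays of DSN1, BIK1 and CNM67 differed in sign. The lowest was DUO1 (YGL061C) of the DASH complex with −0.20 and −0.03, followed by CTF19 (YPL018W) of the inner kinetochore with 0.09 and −0.32. NDC80 (YIL144W) of the outer kinetochore had −0.24 and 0.04, and BUB3 (YOR026W) of the checkpoint had −0.09 and −0.09. DUO1 and BUB3 were below 0 on both arrays, while CTF19 and NDC80 had opposite signs.

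At 4 h again no segregation gene differed by 2-fold, with 0 of 39, against 0.064% of 4691 genes. Of the 39, 7 were above 0 on both arrays (background 18.1%) and 4 were below (background 17.5%). The median was 0.01 (array medians −0.06 and 0.10), beside 0.0060 for all genes. The highest were genes of the DASH complex and the inner kinetochore. DUO1 had 0.25 and 0.29, and SPC19 (YDR201W), also of the DASH complex, had 0.21 and 0.28. In the inner kinetochore AME1 (YBR211C) had 0.27 and 0.14 and MCM21 (YDR318W) 0.08 and 0.27. These 4 genes were above 0 on both arrays. The lowest were TUB3 (YML124C), the minor alpha-tubulin gene, with −0.18 and −0.23, and DSN1 with −0.31 and −0.01. MAD1 (YGL086W) of the checkpoint had −0.84 and 0.53 and BIR1 (YJR089W) of the Aurora complex −0.52 and 0.23. TUB3 and DSN1 were below 0 on both arrays, while MAD1 and BIR1 had opposite signs.

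The swapped arrays of 2 and 4 h opposed each other in the segregation genes as they did across the genome. At 2 h 24 of 35 genes (68.6%) had opposite signs, against 66.5% of all genes, and at 4 h 28 of 39 (71.8%), against 64% of all genes. Across these genes, which share the same arrays, Pearson's r between swapped arrays was −0.65 at 2 h and −0.61 at 4 h, while it was 0.87 at 6 h. Longer segregation genes were lower on replicate 1 and higher on replicate 2. The Spearman correlation with annotated length was −0.37 and 0.53 on the arrays of 2 h (40 and 36 genes), and −0.66 and 0.29 on those of 4 h (39 and 42 genes). Over all genes it was −0.06 and 0.28 at 2 h, so the trend on replicate 1 was almost absent there, and −0.43 and 0.19 at 4 h. ASE1 (YOR058C), which bundles spindle midzone microtubules and spans 2658 bp, had −0.49 and 0.58 at 2 h and −0.54 and 0.47 at 4 h. CIN8 (YEL061C), a motor that pushes the poles apart, had −0.67 and 0.61 at 2 h. MIF2 (YKL089W), an inner kinetochore protein that binds centromeric chromatin, had −0.37 and 0.39 at 2 h and −0.33 and 0.34 at 4 h.

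**Figure D2:**
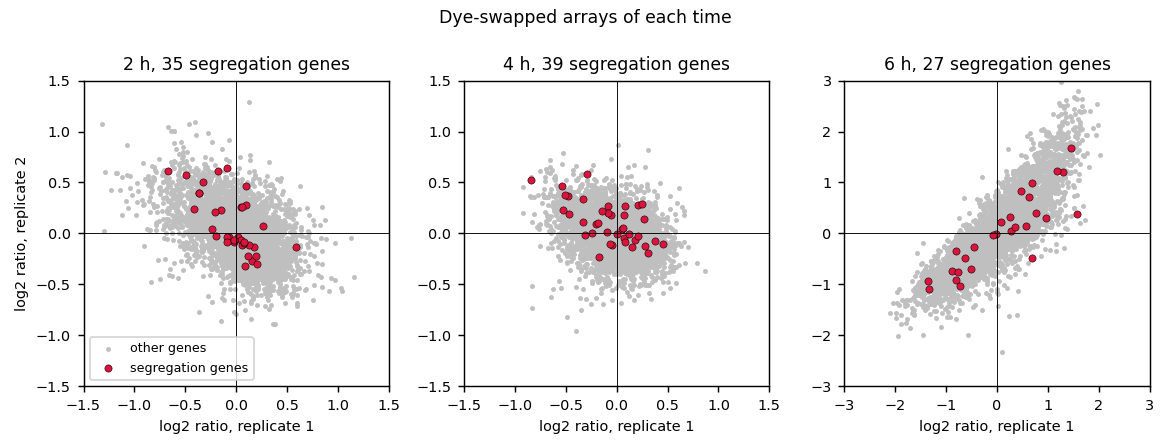
Log2 ratio on replicate 1 (x axis) against that on replicate 2 (y axis) at each time, with the segregation genes in red over all other genes in grey; genes beyond the axis limits, YPI1 among them, are not drawn. Points run downward from left to right at 2 and 4 h (r = −0.65 and −0.61 for the red points) and upward at 6 h (r = 0.87).

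At 6 h the segregation genes split to both sides of 0, and the 3 tubulin and 4 microtubule-binding genes measured on both arrays were above. Those tubulin and microtubule-binding genes are all longer than 1000 bp. Among genes outside the 51, 1053 of 1633 from 1000 to 2000 bp had a mean above 0, as had 515 of 660 longer ones. Among the 10 segregation genes up to 1000 bp, 3 had a mean above 0, as had 264 of 1601 other genes of that length. Of 27 genes measured on both arrays 5 passed 2-fold (18.5%), against 17.9% of 4160 genes, so their share was near the background. Without replicate 2 the count was 13 of 38 (34.2%, against 20.5% of all genes, which are not matched in length). With the arrays scaled to one spread it was 0 (0.0962% of all genes). The SD over all genes was 0.76 at 6 h and 0.16 at 2 and 4 h, so that scaling narrows the 6 h ratios. A low count at a fixed 2-fold limit follows from it. The count was also 0 with the sign of the Cy3 arrays turned (0.024% of all genes), which put CTF19, MCM21 and TUB2 (YFL037W) on the other side of 0. The swapped arrays of 6 h agreed, so turning 1 of them cancels like ratios, and a count near 0 follows from that setting. Of the 5 genes past 2-fold without these changes, those higher were SLK19 (YOR195W), TUB2 and TUB4 (YLR212C) (background 9.81%). Those lower were MCM21 and CTF19 (background 8.08%). The median over the 27 was 0.16 (array medians 0.26 and 0.05), beside −0.10 for all genes. In total 14 genes (51.9%) were above 0 on both arrays, against 39.4% of all genes, and 12 (44.4%) were below, against 48.3%. CIN8 was the gene of opposite signs (3.7%, against 12.1% of all genes).

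SLK19, a kinetochore and spindle midzone protein, was the highest of the 27. It had 0.08 and −0.09 at 2 h and −0.18 and 0.10 at 4 h, with arrays of opposite sign, and 1.45 and 1.67 at 6 h. The 6 h mean was 1.56 ± 0.16, or 2.95-fold. TUB2, the beta-tubulin gene, had 1.31 and 1.22 at 6 h (1.26 ± 0.06, 2.4-fold). TUB4, the gamma-tubulin that starts microtubules at the poles, had 1.19 and 1.22 (1.20 ± 0.02, 2.3-fold). For each of these 3 genes the 6 h arrays lay above both arrays of 4 h. Next came STU2 (YLR045C), a microtubule polymerase, with 1.58 and 0.39. DAM1 (YGR113W), a DASH subunit that Ipl1 phosphorylates, followed with 0.69 and 1.00, and BIK1 with 0.63 and 0.72. The arrays of STU2 differed by more than those of SLK19, TUB2, TUB4, DAM1 and BIK1.

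MCM21 was the lowest of the 27. It had 0.04 and −0.07 at 2 h and 0.08 and 0.27 at 4 h. Its 6 h values were −1.33 and −1.10, and the mean there was −1.21 ± 0.16 or 2.32 times below solvent cells. CTF19, its partner in the same inner kinetochore complex, had 0.38 and −0.08 at 4 h and −1.37 and −0.94 at 6 h (−1.15 ± 0.30, 2.22 times below). The other members of that complex, AME1 with 0.26 and 0.32 and OKP1 (YGR179C) with 0.28 and 0.05 at 6 h, were above 0 on both arrays. Next lowest at 6 h were DAD2 (YKR083C) of the DASH complex with −0.73 and −1.03, NNF1 (YJR112W) of the outer kinetochore with −0.80 and −0.92, BUB3 with −0.89 and −0.74 and IPL1 (YPL209C) with −0.76 and −0.76.

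The 6 h ratios ran with gene length, in the segregation genes and across all genes. Over the segregation genes the Spearman correlation of the ratio with annotated length was 0.76 on replicate 1 (38 genes) and 0.53 on replicate 2 (28 genes), beside 0.67 and 0.58 over all genes. On replicate 1 the 10 segregation genes up to 1000 bp had a median of −0.26, the 16 from there to 2000 bp 0.60, and the 12 longer ones 1.31. Other genes of these lengths had medians of −0.55, 0.29 and 0.79. On replicate 2 the medians were −0.27 (11 genes), 0.23 (12 genes) and 0.39 (5 genes) for segregation genes, beside −0.52, 0.30 and 0.42 for other genes, so segregation genes were above the others there among the shortest alone. Of the 12 longest, 11 were above 0 on replicate 1, with NDC80 the exception, and 3 of the 5 measured on replicate 2 were above 0 there.

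Missing values at 6 h also went with length, on long genes for replicate 2 and on short ones for replicate 1. Replicate 2 had no value for 11 segregation genes that replicate 1 measured, and those 11 were all above 0 on replicate 1, between 0.35 and 1.97 with a median of 1.21. Across the series 563 genes had a value on replicate 1 alone at 6 h, 90.1% of them above 0, with a median of 0.72 and a median length of 1858.5 bp. On replicate 2 alone 90 genes had a value, 18.9% of them above 0, with a median of −0.46 and a median length of 670.5 bp. DAD1, at 285 bp and −1.14, was the segregation gene among them. The count of 5 past 2-fold leaves out genes measured on 1 array. On replicate 1 alone 13 of 38 segregation genes (34.2%) were past 2-fold, 11 higher and 2 lower, against 20.5% of the 4723 genes on that array. Those 4723 genes are not matched in length to the 38. Of the 38, 12 are longer than 2000 bp, and other genes that long had a median of 0.79 on that array.

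**Figure D3:**
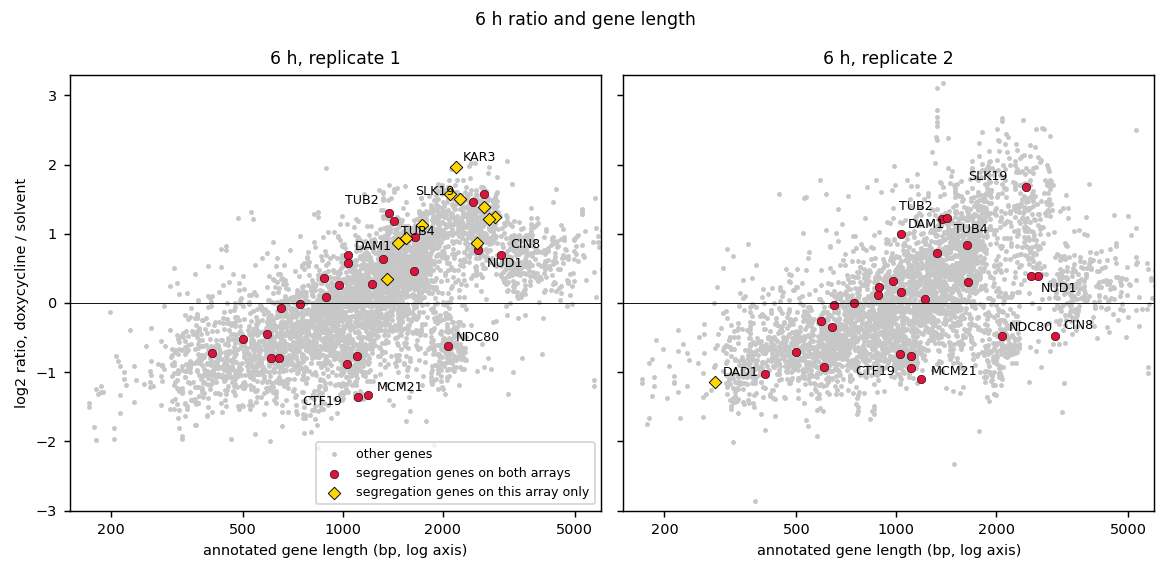
Log2 ratio at 6 h (y axis) against annotated gene length in bp (x axis, log scale) on each array, with segregation genes measured on both arrays in red, those on 1 array in yellow and other genes in grey; genes outside the axes are not drawn. The ratio climbs with length to just below the length of CIN8, a separate low cloud lies near 2000 bp where NDC80 sits, and the 11 yellow genes of replicate 1 are all above 0.

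To set each gene beside others of like length, the median of its 20 matched genes (those of its own chromosome closest to it in length) was taken from its 6 h ratio on each array. On this scale 12 of 27 segregation genes were above 0 on both arrays (background 36.3%) and 9 were below (background 38%), with a median of 0.05, beside −0.0025 for all genes. Past 2-fold were 2, NDC80 and CIN8, both lower (background 5.61%). The matched genes of these were not close in length. On replicate 1 they spanned 1716 to 2484 bp for NDC80 and 2337 to 3648 bp for CIN8, beside 1074 to 1146 bp for CTF19. SLK19 had 0.27 ± 0.07 and MCM21 −0.65 ± 0.05, so neither was past 2-fold relative to its matched genes. On replicate 1, genes measured on that array alone included, NDC80 had −1.56 and no other segregation gene was past 2-fold on this scale. The others lay there between −0.74 for CTF19 and 0.95 for KAR3 (YPR141C).

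Aurora complex genes differed from each other at 6 h. IPL1, the kinase, had −0.02 and −0.06 at 2 h and 0.31 and −0.19 at 4 h, while both of its 6 h values were −0.76. SLI15 (YBR156C), its activator, had 0.05 and 0.26 at 2 h and −0.08 and 0.27 at 4 h, and 1.57 on replicate 1 alone at 6 h. BIR1, the survivin-like subunit, had −0.36 and 0.40 at 2 h, the values given above at 4 h and 1.24 on replicate 1 alone at 6 h. At 4 h all 3 genes had opposite signs on the arrays, and at 6 h IPL1 was low while the other two were high. IPL1 spans 1104 bp, SLI15 2097 bp and BIR1 2865 bp. Relative to matched genes at 6 h IPL1 had −0.19 ± 0.07, SLI15 0.55 and BIR1 0.30, the last 2 on replicate 1.

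The checkpoint genes measured on both arrays at 6 h, MAD2 and BUB3, were low. Those on replicate 1 alone, MAD3 (1548 bp) and MAD1 (2250 bp), were longer and high. MAD2 (YJL030W), which binds and holds back the anaphase activator Cdc20 and spans 591 bp, had 0.17 and −0.14 at 2 h and 0.28 and −0.12 at 4 h, while its 6 h values were −0.45 and −0.27. BUB3, the partner that brings Bub1 and Mad3 to kinetochores, spans 1026 bp and had 0.21 and −0.02 at 4 h. MAD2 and BUB3 were below 0 on both arrays of 6 h. BUB3, at −0.89 and −0.74, was the lower of them though the longer. MAD3 (YJL013C), a subunit of the inhibitor of Cdc20, had 0.12 and −0.22 at 2 h and 0.06 and 0.06 at 4 h, and 0.94 on replicate 1 alone at 6 h. MAD1, the anchor of Mad2 at kinetochores, had −0.43 on the 1 array of 2 h that measured it and 1.499 on replicate 1 alone at 6 h. MPS1 (YDL028C), a kinase of the checkpoint and of pole duplication, had values at 4 h alone, −0.29 and 0.58, of opposite sign. Relative to matched genes at 6 h MAD2 had 0.21 ± 0.01, BUB3 −0.16 ± 0.07, MAD3 0.45 and MAD1 0.27.

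In the inner kinetochore MCM21 and CTF19 were low also beside their matched genes at 6 h, at −0.65 ± 0.05 and −0.58 ± 0.23. MCM21 was above 1 and 1 of its 20 matched genes on the arrays. CTF19 was above 0 of its 20 on replicate 1 and above 4 of 20 on replicate 2. AME1 had 0.44 ± 0.11 and OKP1 −0.13 ± 0.23. MIF2 had 0.95 and 0.30 at 6 h, which is 0.12 and −0.50 relative to matched genes.

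Outer kinetochore genes measured on both arrays at 6 h were all 4 below 0 on both, against 48.3% of all genes. NDC80, the microtubule-binding subunit of the complex named after it, averaged −0.10 ± 0.20 at 2 h and 0.06 ± 0.18 at 4 h, and had −0.63 and −0.48 at 6 h. SPC24 (YMR117C) of the same complex had −0.80 and −0.35 at 6 h, NNF1 of the Mtw1 complex −0.80 and −0.92 and NSL1 (YPL233W) of that complex −0.08 and −0.03. NUF2 (YOL069W), which pairs with Ndc80, had 0.35, DSN1 1.13 and SPC105 (YGL093W), the platform for Bub proteins, 1.21, on replicate 1 alone. Genes measured on 1 array at 6 h were thus above 0 and those measured on both below. SPC24, NNF1 and NSL1 are short, at 642, 606 and 651 bp. Of other genes up to 1000 bp, 264 of 1601 had a 6 h mean above 0. Relative to matched genes SPC24 had 0.05 ± 0.38, NNF1 −0.33 ± 0.25 and NSL1 0.43 ± 0.08. On that scale 1 of the 4 was above 0 on both arrays and 2 were below. SPC25 (YER018C), the fourth subunit of the Ndc80 complex, had 0.15 and −0.27 at 2 h and 0.45 and −0.11 at 4 h, and no value at 6 h.

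NDC80 was the lowest of all segregation genes relative to matched genes, at −1.57 ± 0.01, above 2 and 3 of its 20 matched genes on the arrays. NDC80 spans 2076 bp on chromosome IX, while its matched genes ran from 1716 to 2484 bp on replicate 1 and from 1542 to 2532 bp on replicate 2. The 5 other genes from 2000 to under 2300 bp on that chromosome had a median of 0.91 at 6 h, and 1 of them was below 0. Genes of that length on chromosomes X to XIII had a median of −0.52 (111 genes, 94 below 0), and on the remaining chromosomes 1.16 (79 genes, 8 below 0). These limits were set with the values known. The 6 h mean of NDC80, −0.55, lay near the median of chromosomes X to XIII.

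DASH complex genes, which encode a ring that couples kinetochores to microtubule ends, ran from low to high with length at 6 h. From short to long, DAD1 (YDR016C) had −1.14 (replicate 2 alone), DAD2 −0.73 and −1.03 and SPC19 −0.52 and −0.70. DUO1 had −0.02 and −0.003, ASK1 (YKL052C) 0.36 and 0.12, SPC34 (YKR037C) 0.08 and 0.23 and DAM1 0.69 and 1.00. The order does not separate ASK1 from SPC34, whose arrays overlapped. These 7 genes run between 285 and 1032 bp. DAM1 had −0.39 on the 1 array of 2 h that measured it and −0.20 and 0.10 at 4 h. Relative to matched genes at 6 h DAM1 had 0.76 ± 0.19, above 19 and 20 of its 20 matched genes on the arrays. ASK1 had 0.44 ± 0.27, SPC34 0.25 ± 0.01, DUO1 0.25 ± 0.12, SPC19 0.09 ± 0.14 and DAD2 −0.17 ± 0.21 on that scale.

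Microtubule-binding genes were above 0 on both arrays at 6 h in all 4 cases with both values, against 39.4% of all genes. Beside SLK19, STU2 and BIK1 the 4 included BIM1 (YER016W), a plus-end tracking protein, with 0.58 and 0.15. ASE1 had 1.38 on replicate 1 alone. STU1 (YBL034C), a microtubule rescue factor, had −0.42 and 0.24 at 2 h and −0.24 and 0.01 at 4 h, and no value at 6 h. Relative to matched genes STU2 had 0.34 ± 0.29, BIM1 0.33 ± 0.31 and BIK1 0.00 ± 0.15.

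Among motors KAR3 (YPR141C), which moves toward microtubule minus ends, had the highest single value of the segregation genes. It had −0.51 and 0.37 at 4 h, of opposite sign, and 1.97 on replicate 1 of 6 h, where it lay above all 20 of its matched genes and 0.95 over their median. Replicate 2 of 6 h had no value for it. CIN8 had 0.69 and −0.48 at 6 h, and relative to matched genes −0.01 and −2.08, so the second array alone made its low mean. Its length of 3003 bp lies where the ratio over all genes steps down. Its matched genes ran across that step, from 2337 to 3648 bp on replicate 1 and from 1935 to 3648 bp on replicate 2. Other genes from 2853 to under 3003 bp had a median of 1.33 at 6 h (29 genes) and those from 3003 to under 3153 bp had 0.41 (29 genes), a window width also set with the values known.

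The tubulin genes were together on the high side at 6 h and near 0 before. TUB1 (YML085C), the major alpha-tubulin gene, had 0.19 and −0.22 at 2 h and 0.13 and −0.01 at 4 h, and 0.87 on replicate 1 alone at 6 h. TUB3 had 0.06 and −0.11 at 2 h and 0.46 and 0.83 at 6 h. TUB2 had −0.12 on the 1 array of 2 h that measured it and −0.06 and 0.18 at 4 h, and TUB4 had −0.09 and −0.03 at 2 h and 0.08 and −0.08 at 4 h. TUB1 and TUB3 are close copies, so their ratios are uncertain where probes share signal. Relative to matched genes at 6 h TUB2 had 0.72 ± 0.30, TUB4 0.47 ± 0.02 and TUB3 0.00 ± 0.28, and TUB1 had 0.27 on replicate 1. TUB2 lay above 19 and 15 of its 20 matched genes on the arrays, and TUB4 above 20 and 17.

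Of the spindle pole body genes 3 of 7 had values on both arrays at 2 and 4 h and 1 of 7 at 6 h. CNM67 had −0.47 and 0.37 at 4 h. SPC98 (YNL126W), of the gamma-tubulin complex, had 0.06 and 0.26 at 2 h and −0.33 and 0.11 at 4 h, and 0.87 on replicate 1 alone at 6 h. NUD1 had −0.05 and −0.11 at 4 h and 0.76 and 0.39 at 6 h. Relative to matched genes at 6 h NUD1 had −0.77 ± 0.30, and SPC98 had −0.23 on replicate 1.

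**Figure D4:**
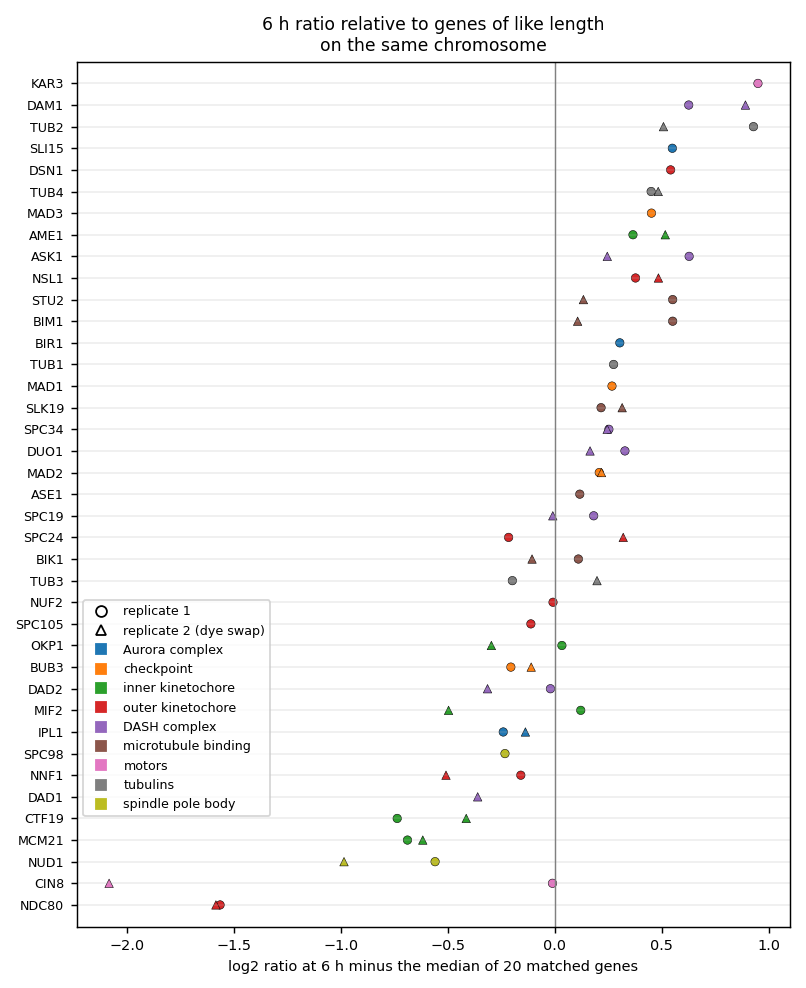
Log2 ratio at 6 h minus the median of the 20 matched genes (x axis) for each segregation gene with a value, sorted by the mean, with circles for replicate 1, triangles for replicate 2 and colours for the groups. KAR3, DAM1 and TUB2 are at the top and NDC80 at the bottom, with both of its arrays near −1.57.

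Over the 3 times no segregation gene passed a test. With n = 3 RNA pairs, limma compared the mean over the times with 0, under Benjamini-Hochberg adjustment over 3391 genes. Of 21 segregation genes tested 0 passed (adjusted p from 0.806 to 0.924), against 0.0295% of all genes, which is YPI1, and 0 had an unadjusted p below 0.05. Their means ran from −0.37 for CTF19 to 0.51 for SLK19, with a median of 0.06, beside −0.03 for all genes tested. None of the 21 had 1 sign on all 6 arrays. Because each pair had another time in doxycycline, a change over time counts as error here, and no p measures the spread between biological replicates.

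The slope of the ratio on hours, with the line held at 0 at time 0, also called 0 of the 21 (limma adjusted p from 0.306 to 0.836), against 0.059% of all genes. An unadjusted p below 0.05 was found for 3 of them, SLK19, TUB4 and STU2, against 14.3% of all genes, which is the same share. SLK19 had a slope of 0.16 ± 0.058 per hour (SE), TUB4 0.13 ± 0.0499 and STU2 0.11 ± 0.044, each with a limma adjusted p of 0.306. Without 4 h the slope test called 13 of 23 segregation genes (56.5%), against 51.2% of all genes. Those calls rest on the RNA pairs of 2 h and 6 h alone.

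Further genes of the same machinery, in 5 lists of 69 genes, gave few changes past the limits. Identifiers were found for 67, and HSK3 and WIP1 were not analysed here. Of 31 tested genes 0 passed the limma test of the mean or of the slope. None passed 2-fold at 2 h (42 genes) or 4 h (51 genes). At 6 h 7 of 44 did (15.9%, background 17.9%), 2 higher and 5 lower.

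Among other kinetochore genes 7 of 11 were below 0 on both arrays at 6 h (background 48.3%), with a median of −0.29 and 0.18 relative to matched genes. MTW1 (YAL034W-A), the outer kinetochore partner of NNF1, NSL1 and DSN1, was the highest at 0.95 and 1.77, which is 1.61 ± 0.39 relative to matched genes for a gene of 870 bp. DAD3 (YBR233W-A) of the DASH complex was the lowest at −0.92 and −1.12. In the list of other spindle pole body genes 5 of 7 were below 0 on both arrays (background 48.3%), with a median of −0.38 and −0.19 relative to matched genes. Its lowest was MPS3 (YJL019W), a pole protein of the nuclear envelope, at −0.73 and −0.93. Its highest was HCM1 (YCR065W), at 1.30 and 1.94 and 0.92 ± 0.21 relative to matched genes, which encodes not a pole protein but a forkhead transcription factor of spindle genes.

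Other motors and microtubule proteins had 7 of 10 below 0 on both arrays at 6 h (background 48.3%), with a median of −0.32 and −0.14 relative to matched genes. They ran from DYN2 (YDR424C), a dynein light chain, at −1.06 and −0.65 to NUM1 (YDR150W), the cortical anchor of dynein, at 0.74 and 0.90. Tubulin folding genes were below 0 on both arrays in 10 of 10 cases (background 48.3%), with a median of −0.89 and −0.17 relative to matched genes. These 10 genes are short, the longest at 887 bp. Of the genes up to 1000 bp that are not among the 51, 264 of 1601 had a mean above 0. RBL2 (YOR265W), which binds free beta-tubulin, was the lowest at −0.57 and −2.01 and CIN2 (YPL241C), a tubulin cofactor, the highest at −0.59 and −0.55. Cohesin and anaphase trigger genes had 4 of 6 above 0 on both arrays (background 39.4%), with a median of 0.62 and 0.09 relative to matched genes. They ran from PDS1 (YDR113C), the securin, at −0.73 and −0.62 to PDS5 (YMR076C), a cohesin regulator, at 1.22 and 0.59. Over the 5 lists the medians relative to matched genes lay between −0.19 and 0.18.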

How the data were processed

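RNA of doxycycline and solvent cells was compared on 6 arrays, dye-swapped at each of 3 times. The deposited values are log2 ratios made by the authors, 1 per identifier and array. The log base is not stated, and log2 was taken from the range of the values. Per the labels, the authors removed spots with a diameter below 120 µm or with Cy3 and Cy5 fluorescence below 100 units. Normalization, spot averaging and the turning of swapped arrays are not given in the sources used here. The ratio was read as doxycycline over solvent, since the labels put treated RNA in channel 1.

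The R64 RefSeq table held 5662 of the 6212 identifiers by systematic name, 24 after a change to upper case, the 51 segregation genes among them. Symbols, chromosomes and lengths (annotated spans, introns included) come from that table, whose build the series does not name. Swapped arrays hold the same RNA, so their values were averaged, and single times have no p. With limma 3.58.1 (R 4.3.3; lmFit, eBayes, two-sided, Benjamini-Hochberg at 0.05) the mean and the slope over the times were tested on the 3391 genes with a value on all 6 arrays, and the steps were tested on simulated data. Matched genes were 20 per gene and array, by closeness in length within a chromosome. A length curve was taken by lowess with a span of 0.3 and 3 robust steps (statsmodels 0.14.6).

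The genes, lists and corrections were chosen with earlier results of these data known. Any of the 51 could be named. Given with array values were genes past a test or 2-fold, the 6 highest and 6 lowest at 6 h, the 4 highest and lowest at 2 and 4 h, the Aurora complex, the checkpoint and the tubulins, and the highest and lowest of each further list at 6 h. Other values named beside them were chosen after they were seen. Alternatives were array centring and scaling, a looser filter on missing values, both length corrections, turned Cy3 arrays, arrays and times left out, arrays as units with and without a replicate block or dye term, a robust variance and other fold limits. No sequences were used here.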

Additional observations from a re-analysis of the deposited data

Results flagged for a closer look

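In 9 genes both arrays of a time lay on one side of 0 and both arrays of another time on the other. These differences between times were not tested, as each time has 1 RNA pair. Between 2 and 4 h this held for 2 of 32 segregation genes, against 8.09% of all genes. DUO1 was higher at 4 h by 0.38 on the log2 scale, and NUD1 had a difference of −0.37. Between 2 and 6 h it held for 4 of 23, against 10.6% of all genes. The difference of 6 h minus 2 h was 1.26 for TUB4, 0.42 for BIM1, 0.29 for ASK1 and −0.78 for SPC19. Between 4 and 6 h it held for 6 of 25, against 23.7% of all genes. The difference of 6 h minus 4 h was 0.85 for TUB3 and 0.66 for NUD1. It was −1.39 for MCM21, −0.85 for SPC19, −0.70 for SPC24 and −0.28 for DUO1. The shares at 4 against 6 h are close to that of all genes, and the ratios of these times correlated with gene length in opposite directions (Spearman −0.52 over 39 segregation genes at 4 h and 0.56 over 27 at 6 h).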

How the results depend on the processing

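The count of segregation genes past 2-fold at 6 h was 5, and it depended on the processing. It was 0 with the sign of the Cy3 arrays turned. It was also 0 with arrays scaled to one spread, where a low count follows from narrowing the 6 h ratios. It was 3, all lower (NDC80, CTF19 and MCM21), with the length curve removed (11.1%, against 9.33% of all genes), and 2, both lower (NDC80 and CIN8), relative to matched genes. It was 15 at a 1.5-fold limit (8 higher, 7 lower; 55.6%, against 49.2% of all genes), and 13 with a value on at least 1 array (10 higher, 3 lower; 33.3%, against 19.4%). It ranged from 6 (21.4%, against 19.5%) to 13 (34.2%, against 20.5%) with replicate 1 or 2 left out. All genes in these shares are not matched in length to the segregation genes. The count was 4 where each array had to pass 2-fold (14.8%, against 11%), a rule added after seeing the data. The 6 h median of 0.16 moved to 0.37 with a value on at least 1 array, and was 0.0235 without replicate 1 and 0.60 without replicate 2. The turned sign gave CTF19 0.21, MCM21 0.12 and TUB2 −0.045 at 6 h, against their reported direction, and STU2 a slope of −0.0725. At 6 h the turn sets arrays that agreed against each other, YPI1 among their genes. The count of 0 follows from that, and the turned 6 h values reflect differences between the arrays. Without 6 h the slopes of SLK19 (−0.0088) and TUB4 (−0.0062) also changed sign. The test of the mean called 0 genes except with the turned sign, where it called 2 of 21 (CTF19 higher and MIF2 lower), and 22.3% of all genes. The slope test called 0 except without 4 h, where it called 13 of 23 (56.5%), against 51.2% of all genes, from the pairs of 2 h and 6 h alone. With 6 arrays as units and a replicate block, which counts dye swaps as replicates, both tests called 0 of 21. The numbers mark dye swaps of 1 RNA pair, not shared cultures. At 2 and 4 h the count past 2-fold stayed 0 and the medians moved by less than the spread between arrays under the alternatives run, the 1.5-fold limit included for the count. The causes of these changes were not tested.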
